A study of Mus musculus with 55 samples.

Results

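The 9 genes described here mark the commitment of a blood progenitor to the B lineage: Ebf1, Pax5, Cd79a, Cd79b, Igll1, Vpreb1, Vpreb3, Blnk and Pou2af1. They were taken by gene symbol from a count table of 55421 genes, and all 9 also had a row in a second table of 35976 genes. The libraries came from C57BL/6 mice, each made from sorted bone marrow cells of 1 population (200 cells by the labels, while the study's methods give another number). In the first set of 46 libraries, long-term and short-term hematopoietic stem cells (LT-HSC, ST-HSC), common myeloid (CMP), granulocyte-monocyte (GMP), megakaryocyte-erythroid (MEP) and common lymphoid progenitors (CLP) of wildtype (WT) and Tet2-/- mice were compared, with 4 libraries per group except 3 for WT LT-HSCs and WT ST-HSCs. The Tet2-/- mice carried Tet2 f/f with Mx1-Cre, a transgene driven by an interferon-responsive promoter and induced with poly(I:C) in young mice, and the mice were kept for months before analysis. The labels do not say which alleles the WT mice carried or whether they received poly(I:C). The second set held 9 LT-HSC libraries, 3 each labelled WT, Sting-/- and Tet2;Sting double knockout (DKO, which carries the Tet2 f/f, Mx1-Cre and Sting-/- alleles).

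B-lineage commitment begins in lymphoid progenitors that express the interleukin-7 receptor. The factor EBF1 opens and activates B-cell genes and induces PAX5, which then represses other fates. Its targets include the signalling chains Cd79a and Cd79b, which pair with the immunoglobulin heavy chain, and the adaptor Blnk, which passes their signal on. Igll1 and Vpreb1 encode the surrogate light chain that completes the pre-B-cell receptor, and Vpreb3 encodes a related protein. Pou2af1 encodes a coactivator of octamer-binding factors that stays active in antibody-secreting plasma cells. Pax5, by contrast, is switched off in plasma cells, while Cd79a and Pou2af1 remain expressed there.

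Promoter sequence was read for the genes whose levels the results turn on, since short motifs for B-cell factors are one property these genes could share. Of the 9 genes, 8 had a window in RefSeq (assembly GRCm38.p6, 250 bases before to 50 after the start), and Cd79b did not. The octamer ATTTGCAT, searched on both strands, was found in 2 of the 8, Blnk and Vpreb3, against 1.74% of all 32851 windows. The Igll1 window held the E-box CAGCTG, found in 1 of the 8 and in 16.3% of all windows. The ETS core GGAAG was present in 6 of the 8 and in 71.4% of all windows, and the EBF half-site pair (TCCC, any 2 bases, GGGA) in none of the 8 and in 0.904% of all. The motifs did not overlap in these windows, and a match is a description of the letters only. The windows of the surrogate light chain genes, Vpreb3 and the adaptor gene Blnk are shown 5′ to 3′ with the octamer or E-box in capitals. They are Blnk at chr19:40994172-40994471 (minus strand), Vpreb3 at chr10:75948050-75948349 (plus), Igll1 at chr16:16863936-16864235 (minus) and Vpreb1 at chr16:16869206-16869505 (minus), which held neither motif.
Blnk: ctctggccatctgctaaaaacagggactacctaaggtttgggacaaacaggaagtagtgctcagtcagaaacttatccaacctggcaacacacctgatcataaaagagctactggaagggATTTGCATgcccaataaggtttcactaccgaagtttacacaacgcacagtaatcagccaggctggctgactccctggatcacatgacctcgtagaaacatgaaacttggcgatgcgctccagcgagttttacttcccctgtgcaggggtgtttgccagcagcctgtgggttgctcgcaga
Vpreb3: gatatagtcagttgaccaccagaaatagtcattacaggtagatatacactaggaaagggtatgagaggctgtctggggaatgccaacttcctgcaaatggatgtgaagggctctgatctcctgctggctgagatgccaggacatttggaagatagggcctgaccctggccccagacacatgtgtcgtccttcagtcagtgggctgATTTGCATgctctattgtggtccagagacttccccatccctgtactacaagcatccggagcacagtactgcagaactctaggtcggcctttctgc
Igll1: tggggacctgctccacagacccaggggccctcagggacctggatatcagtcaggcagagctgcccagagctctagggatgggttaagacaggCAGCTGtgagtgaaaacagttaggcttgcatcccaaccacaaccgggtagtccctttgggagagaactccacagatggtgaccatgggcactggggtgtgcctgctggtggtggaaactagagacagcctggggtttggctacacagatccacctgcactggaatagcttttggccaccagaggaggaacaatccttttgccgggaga
Vpreb1: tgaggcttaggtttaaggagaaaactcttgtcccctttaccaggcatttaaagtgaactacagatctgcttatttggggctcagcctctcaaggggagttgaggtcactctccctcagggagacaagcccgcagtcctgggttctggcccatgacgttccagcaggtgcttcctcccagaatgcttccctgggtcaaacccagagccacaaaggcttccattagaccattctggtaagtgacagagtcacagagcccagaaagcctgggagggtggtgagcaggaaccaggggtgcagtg

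Igll1 and Vpreb1 lie next to each other on chromosome 16 (mm10, 16860671 to 16863985 and 16868403 to 16870843, both on the minus strand). Vpreb1 has a near-identical relative, Vpreb2, whose reads cannot be separated with certainty by gene counts, so values of Vpreb1 are uncertain in that respect. The other 7 genes lie apart from each other in mm10, with Ebf1 at chr11:44617317-45008091, Cd79b at chr11:106311341-106314762, Pax5 at chr4:44524757-44710487, Cd79a at chr7:24897381-24902197, Pou2af1 at chr9:51213708-51240080, Vpreb3 at chr10:75943057-75949657 and Blnk at chr19:40928927-40994535.

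The first set held 50458473 to 102148079 counts and 13754 to 20964 detected genes per library, and the second set 26776517 to 78682096 counts and 9382 to 11528 genes. Levels are given as CPM, counts scaled to a fixed library size after TMM scaling, a level that is not corrected for gene length. Whole-gene counts of Tet2 did not pass the test in any of the 6 populations (log2 fold changes of Tet2-/- against WT from -0.37 in CMPs to 1.23 in CLPs). These counts also hold exons outside the deleted part, so they do not check the genotype. In the second set, Tmem173, which encodes STING, read 0, 62.1 and 120.2 CPM in the libraries labelled Sting-/-, 0, 0.2 and 25.9 CPM in those labelled DKO and 0, 34.4 and 45.8 CPM in those labelled WT, so this gene does not separate the labelled groups. The study assayed STING protein separately, by Western blot of cKit+ marrow cells, and reports that the protein was lost in Sting-/- and DKO cells. That blot was not analysed here, and the sources used here do not say whether the Sting-/- allele removes the RNA.

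The CLP libraries were checked against marker lists before the 9 genes were read. The sort gate for CLPs took lineage-negative, cKit+ cells with intermediate Sca1 that carried CD127, the product of Il7r, and the lineage antibodies listed for the stem-cell stain included B220, a B-cell marker that plasma cells can lack. Il7r, the marker of the CLP sort gate, was at 371 to 649 CPM in WT CLPs and at 1119, 256, 231 and 340.3 CPM in Tet2-/- CLPs 2, 3, 4 and 5, against a mean of 0.588 CPM outside CLPs in the first set. Rag1, the recombinase gene of early lymphoid cells, was at 0 in all 4 WT CLP libraries and at 9.37, 2.20, 0.0593 and 19.3 CPM in the Tet2-/- libraries. WT CLP 4 also had Flt3 at 0 and Dntt at 0.879 CPM, against 384 to 663 CPM of Dntt in the other WT CLPs. Early lymphoid markers were therefore unevenly present in libraries of the same gate.

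Plasma-cell transcripts were abundant in the same libraries. All 4 plasma-cell markers on the list (Sdc1, Jchain, Xbp1 and Tnfrsf17) were above 3 counts in both CLP groups, with a summed level of 14368 to 102911 CPM in WT and 155 to 48168 CPM in Tet2-/- libraries, and of at most 150.4 CPM in the 38 libraries of the other 5 populations of the first set. In the second set of LT-HSC libraries the highest sum was 349.6 CPM, in WT 1. Immunoglobulin and J chain genes took 26.4%, 43.3%, 47.0% and 40.0% of all counts in WT CLPs 2, 3, 4 and 5. In Tet2-/- CLPs 2, 3, 4 and 5 they took 0.0840%, 9.36%, 29.2% and 32.6%. Tet2-/- CLP 2 thus stood apart, with the lowest plasma-cell sum of 155 CPM, the highest sum of the 10 T- and NK-cell markers (2614 CPM, against 245 to 901 in WT) and Ncr1 at 1453 CPM, and no counts of the 6 mature B-cell markers. Tet2-/- CLP 3 had the highest granulocyte sum (12065 CPM over 9 markers, of which Mpo gave 7154) and the highest megakaryocyte sum (1371 CPM over 4 markers). The mature B-cell marker Cd22 and the T-cell markers Cd3e and Cd8a were at 3 counts or fewer in every CLP library. The sum of 5 plasmacytoid dendritic cell markers was 207 to 427 CPM in WT and 74.5 to 127 CPM in Tet2-/- CLPs, ranges that did not overlap. The part of these other transcripts in the results below was not tested, and in bulk samples fewer cells of a type and less RNA per cell cannot be told apart.

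Across the 6 populations, 8 of the 9 genes were at trace levels outside CLPs. The highest CPM in any of the 38 libraries of the other populations was 1.04 for Ebf1, 0.398 for Pax5, 0.965 for Cd79a, 1.89 for Igll1, 3.23 for Vpreb1, 2.01 for Vpreb3, 9.26 for Blnk and 0.784 for Pou2af1. Cd79b was the exception, with 2.57 to 95.7 CPM. In the plot of levels by population, the CLP points lie above all others of their genotype, in both genotypes, for Cd79a and Blnk. Only Cd79b forms a ladder.

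**Figure D1:**
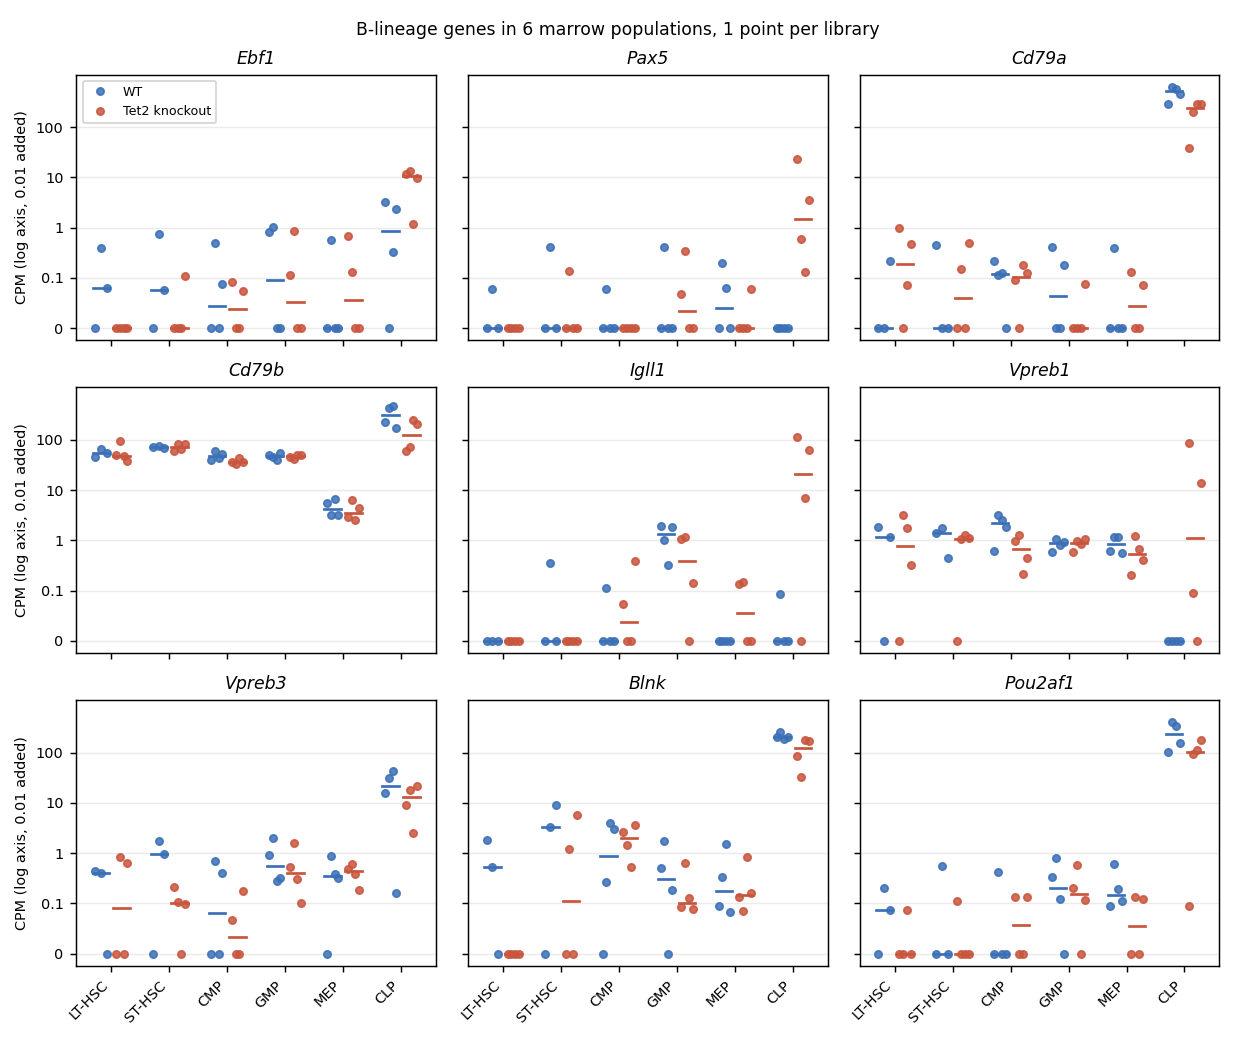
CPM (vertical, log axis with 0.01 added) of each of the 9 genes in the 6 populations (horizontal), with WT in blue and Tet2-/- in red, 1 point per library and a bar at each group's median. Outside CLPs only Cd79b stays above 2 CPM in every library, and Pax5, Igll1 and Vpreb1 have points in Tet2-/- CLPs where the WT CLP points lie at or near 0.

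The question of where these genes are expressed was addressed by setting CLPs against the mean of the other 5 populations within each genotype, with edgeR's quasi-likelihood test in 1 fit of all 46 libraries. A gene was called when the adjusted p was below 0.05 and the change at least 2-fold. In WT, 5 of the 9 genes were called higher in CLPs, a direction in which 15.4% of all 22360 genes were called, and 1 was called lower, against 11.6% of all genes. In Tet2-/- mice all 9 were called higher, against 17.2% of all genes, and none lower, against 7.55%. The median log2 fold change of the 9 genes was 3.29 in WT and 7.23 in Tet2-/-, beside medians of -0.33 and -0.14 over all genes tested. The WT median stayed at 3.29 with the genes at 3 counts or fewer set to their bounds.

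Cd79a and Pou2af1, the receptor chain and the coactivator, rose most in WT CLPs. The log2 fold change of Cd79a was 11.84 (SE 0.97, adjusted p = 3.5e-12) and that of Pou2af1 10.32 (SE 1.06, adjusted p = 8.09e-10). The adaptor gene Blnk rose by 7.54 (SE 1.04, adjusted p = 5.46e-07), Vpreb3 by 5.50 (SE 1.06, adjusted p = 9.37e-05) and Cd79b by 3.29 (SE 0.23, adjusted p = 6.92e-14). Every WT CLP library was above every other WT library for Cd79a, Cd79b, Blnk and Pou2af1, but not for Vpreb3, which read 0.149 CPM in WT CLP 5. Among genes with over 3 counts in a WT library, 2.77% had every CLP library above every other.

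The early factors and the surrogate light chain were not called higher in WT CLPs in this fit. The log2 fold change of Ebf1, the initiating factor, was 2.67 (SE 1.37, adjusted p = 0.143), though with the replicate number as a block Ebf1 was called higher (4.21, adjusted p = 0.00434). Pax5 and Igll1 were at 3 counts or fewer in every WT CLP library and were not called (adjusted p = 0.188 and 0.935). Vpreb1 was called lower, at least 17.2-fold below the other WT populations (adjusted p = 0.00186), with no counts in any of the 4 WT CLP libraries.

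In Tet2-/- CLPs the surrogate light chain and the early factors were above the other populations. Igll1 rose by 8.99 on the log2 scale (SE 1.14, adjusted p = 6.88e-07), Pax5 by 7.23 (SE 1.15, adjusted p = 1.59e-05), Ebf1 by 6.70 (SE 1.22, adjusted p = 6.02e-05) and Vpreb1 by 4.87 (SE 0.92, adjusted p = 9.03e-05). Without Tet2-/- CLP 2, Vpreb1 was no longer called (2.42, adjusted p = 0.0786), while Pax5 at 4.96 (adjusted p = 0.000546) and Igll1 at 8.01 (adjusted p = 8.09e-06) were still called. Cd79a (10.68), Pou2af1 (10.16), Blnk (8.27), Vpreb3 (5.66) and Cd79b (2.23) were called higher here as in WT. Only Ebf1, Cd79a, Vpreb3 and Blnk had every Tet2-/- CLP library above every other Tet2-/- library, as did 1.44% of all genes with over 3 counts in a Tet2-/- library.

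**Figure D2:**
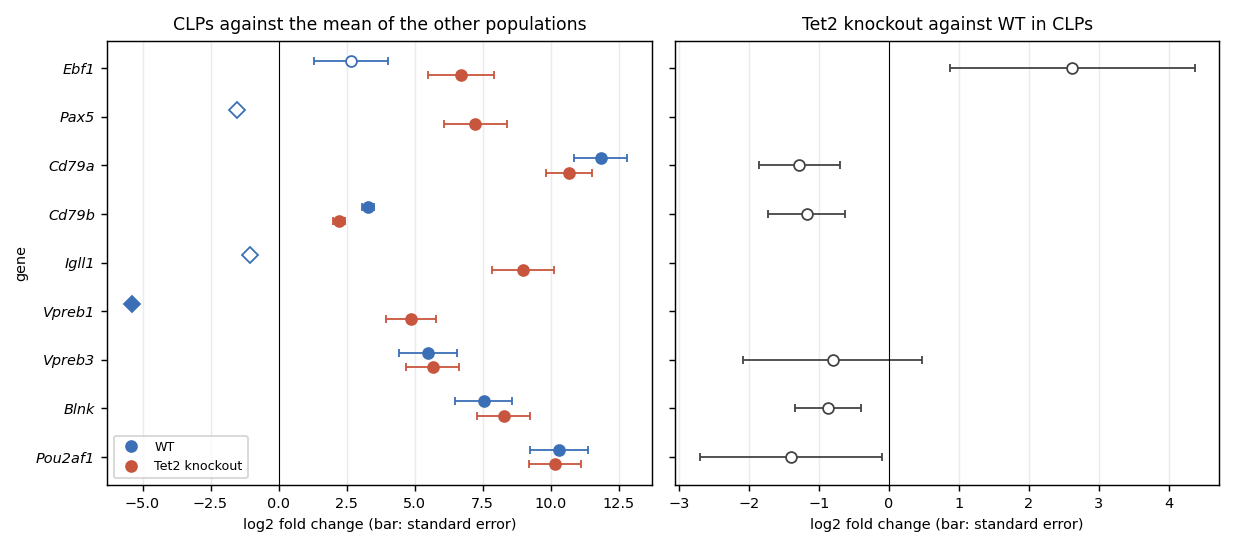
Log2 fold change (horizontal) for each gene. The left panel sets CLPs against the mean of the other 5 populations in WT and Tet2-/-, and the right panel Tet2-/- against WT within CLPs. Bars are standard errors derived from the test statistic. Filled symbols were called, open ones were not, and diamonds are fits of a gene at 3 counts or fewer in WT CLPs, which depend on the prior count and are not bounds. All 9 Tet2-/- symbols on the left are filled and to the right of 0, while no symbol on the right panel is filled and Pax5, Igll1 and Vpreb1 had no fit there.

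Whether loss of Tet2 changed these genes within CLPs was tested on the 8 CLP libraries alone. None of the 6 genes that passed the filter on low counts was called, in a comparison where 0.00766% of all 13060 genes were called. No unadjusted p of the 6 was below 0.05, against 3.65% of all genes. DESeq2 also called none of the 6, where it called 0.952% of 12495 genes. The median log2 fold change of the 6 was -1.02, beside 0.07 over all genes, and over all 9 genes with the 3 others at their lower bounds it was -0.80. When all 46 libraries shared 1 fit, 4 of the 9 genes were called, against 6.61% of all 22360 genes. They were Vpreb1 (edgeR, adjusted p = 0.000821), Igll1 (adjusted p = 0.0161) and Pax5 (adjusted p = 0.0352), higher in Tet2-/- CLPs, and Cd79b (-1.16, adjusted p = 0.0353), lower.

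The 3 genes left out by the filter were those at or near 0 in WT CLPs. Pax5 had 0 counts in all 4 WT CLP libraries and 23.5, 0.599, 0.119 and 3.55 CPM in Tet2-/- CLPs 2, 3, 4 and 5, the last but one of these being only 6 counts. The groups did not overlap, and the mean was at least 99.3-fold higher in Tet2-/- (two-sided exact permutation test, p = 0.0286, the smallest that 4 against 4 libraries can give, and 0.743 after adjustment over the 26 such tests made). Among genes with over 3 counts in a CLP library, 2.68% had groups that did not overlap. Without Tet2-/- CLP 2 the mean of Pax5 fell from 6.94 to 1.42 CPM.

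The surrogate light chain genes rested on the same libraries. Igll1 was at 113, 0, 6.94 and 62.1 CPM in Tet2-/- CLPs 2, 3, 4 and 5 and at no more than 0.0749 CPM in WT CLPs, so that the mean was at least 652-fold higher (two-sided exact permutation test, p = 0.143). Vpreb1 was at 88.3, 0.0782, 0 and 13.9 CPM in the same Tet2-/- libraries and at 0 in WT CLPs, at least 366-fold higher by the mean (two-sided exact permutation test, p = 0.143). Libraries 2 and 5 were thus high for both genes, while library 3 lacked Igll1 and library 4 lacked Vpreb1. Without library 2 the Tet2-/- means were 23.01 CPM for Igll1 and 4.67 CPM for Vpreb1. Vpreb3, which is not part of the surrogate light chain, was at 15.7, 31.4, 42.7 and 0.149 CPM in WT CLPs 2, 3, 4 and 5 and at 9.24, 18.1, 2.55 and 21.6 CPM in Tet2-/- CLPs (log2 fold change -0.80, SE 1.28), with overlapping groups.

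Ebf1 read 3.17, 0, 0.314 and 2.31 CPM in WT CLPs 2, 3, 4 and 5 and 11.6, 13.5, 1.19 and 9.66 CPM in Tet2-/- CLPs. Library 4 was the only Tet2-/- library within the WT range. The log2 fold change was 2.62 (SE 1.75), and without that library the Tet2-/- mean moved from 8.98 to 11.6 CPM. Pou2af1 read 102, 410.5, 337 and 159.8 CPM in WT CLPs and 0.0782, 93.6, 114 and 179 CPM in Tet2-/- CLPs (log2 fold change -1.40, SE 1.30). The groups overlapped, and Tet2-/- CLP 2 was nearly devoid of Pou2af1 while holding the most Pax5.

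The receptor chains were lower by the mean in Tet2-/- CLPs, without passing the test. The sum of plasmacytoid dendritic cell markers given above was lower there too. Sums of plasma-cell markers were 155 to 48168 CPM in Tet2-/- and 14368 to 102911 CPM in WT CLPs. Those of T- and NK-cell markers were 527 to 2614 CPM and 245 to 901 CPM. Whether any of these lists bears on the receptor chains was not tested. Cd79a was at 292, 645, 590.3 and 465 CPM in WT CLPs 2, 3, 4 and 5 and at 39.3, 202, 296 and 285 CPM in Tet2-/- CLPs (log2 fold change -1.28, SE 0.58). Cd79b was at 227, 440.4, 480.3 and 173 CPM in WT and at 60.3, 73.5, 251 and 206 CPM in Tet2-/- CLPs (log2 fold change -1.17, SE 0.55). Both pairs of groups overlapped. Blnk was at 206, 256, 189 and 202 CPM in WT and at 86.6, 33.5, 176 and 175 CPM in Tet2-/- CLPs, groups that did not overlap (log2 fold change -0.87, SE 0.47). The adjusted p of all 6 fitted genes was 0.999992 by edgeR. Without Tet2-/- CLP 2, the means were 261 CPM for Cd79a, 177 CPM for Cd79b and 128 CPM for Blnk, nearer to the WT means of 498, 330.0 and 213 CPM. Without Tet2-/- CLP 3 they were 207, 172 and 146 CPM, so that Blnk moved further than without CLP 2. Without Tet2-/- CLP 4 or CLP 5, each of these means was lower than with every library.

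**Figure D3:**
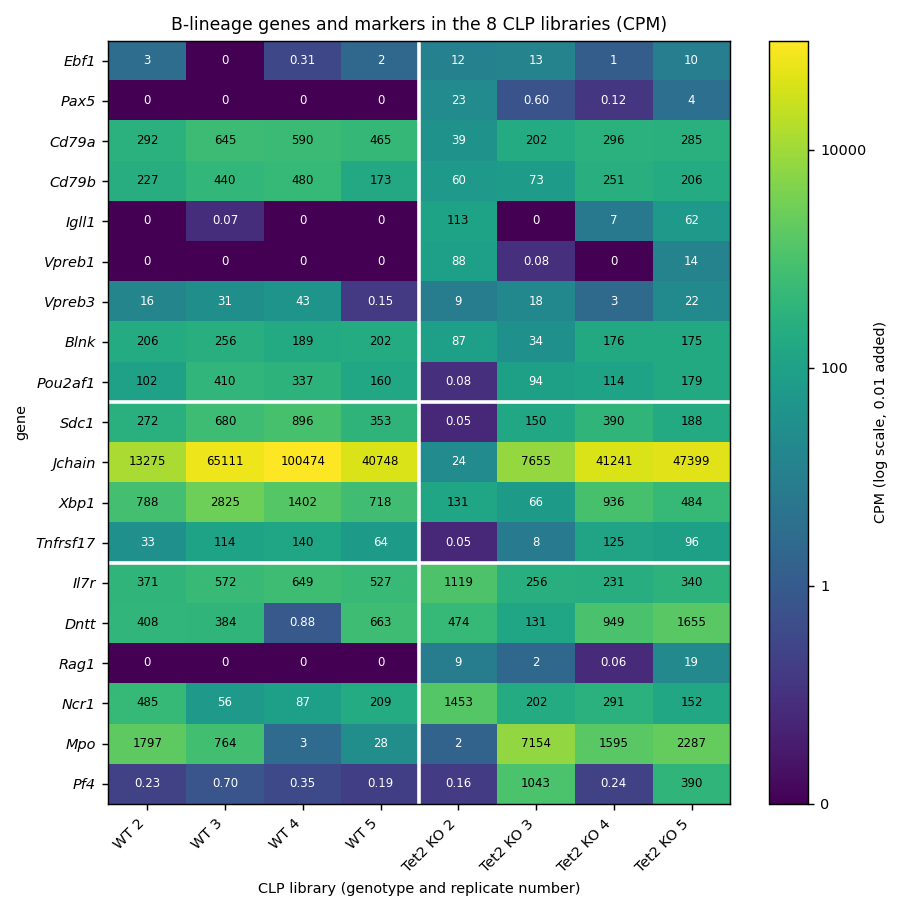
CPM of the 9 genes, 4 plasma-cell markers and 6 other markers (rows) in the 8 CLP libraries (columns, WT then Tet2-/-), with colour on a log scale after adding 0.01 and the CPM printed in each cell. The rows of Pax5 and Vpreb1 are 0 in the 4 WT columns, and Tet2-/- CLP 2 joins the highest Pax5, Igll1 and Vpreb1 with the lowest Jchain (23.6 CPM) and Pou2af1 (0.0782 CPM).

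On a per-length scale (CPM per kilobase of exon) the order of the genes could be compared. In WT CLPs the mean levels were 375 for Cd79a, 268 for Cd79b, 102 for Blnk, 98.3 for Pou2af1, 37.2 for Vpreb3, 0.255 for Ebf1 and 0.0215 for Igll1, with Pax5 and Vpreb1 at 0. In Tet2-/- CLPs they were 155 for Cd79a, 120 for Cd79b, 56.1 for Blnk, 52.3 for Igll1, 37.6 for Pou2af1, 33.3 for Vpreb1, 21.3 for Vpreb3, 1.58 for Ebf1 and 0.863 for Pax5. The receptor chains had the highest means in both genotypes, and Ebf1 and Pax5 the lowest in Tet2-/- CLPs. Without Tet2-/- CLP 2 the Tet2-/- means were 50.2 for Pou2af1, 26.4 for Igll1, 23.4 for Vpreb3 and 6.08 for Vpreb1, so that Igll1 lay below Pou2af1 and Vpreb1 below Vpreb3. Without Tet2-/- CLP 4 the order moved the other way, with Igll1 (67.1) above Blnk (46.9) and Vpreb1 (44.4) above Pou2af1 (35.4). Vpreb1 also lay above Pou2af1 without Tet2-/- CLP 3 (44.4 against 38.0) or CLP 5 (38.4 against 26.9).

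The 9 genes split by how they followed the plasma-cell markers across the 8 CLP libraries. Pearson's r of log2 CPM with Jchain, which encodes the J chain of secreted IgM and IgA, was 0.98 for Pou2af1, 0.96 for Cd79a, 0.80 for Cd79b and 0.50 for Blnk. It was -0.74 for Pax5, -0.72 for Vpreb1, -0.52 for Ebf1, -0.50 for Igll1 and 0.00 for Vpreb3. Among the genes themselves, r was 0.96 for Cd79a with Pou2af1, 0.95 for Pax5 with Vpreb1 and 0.83 for Igll1 with Vpreb1. These are descriptions over 8 libraries of 2 genotypes that share depth and scaling, and Tet2-/- CLP 2 lies at the end of each.

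**Figure D4:**
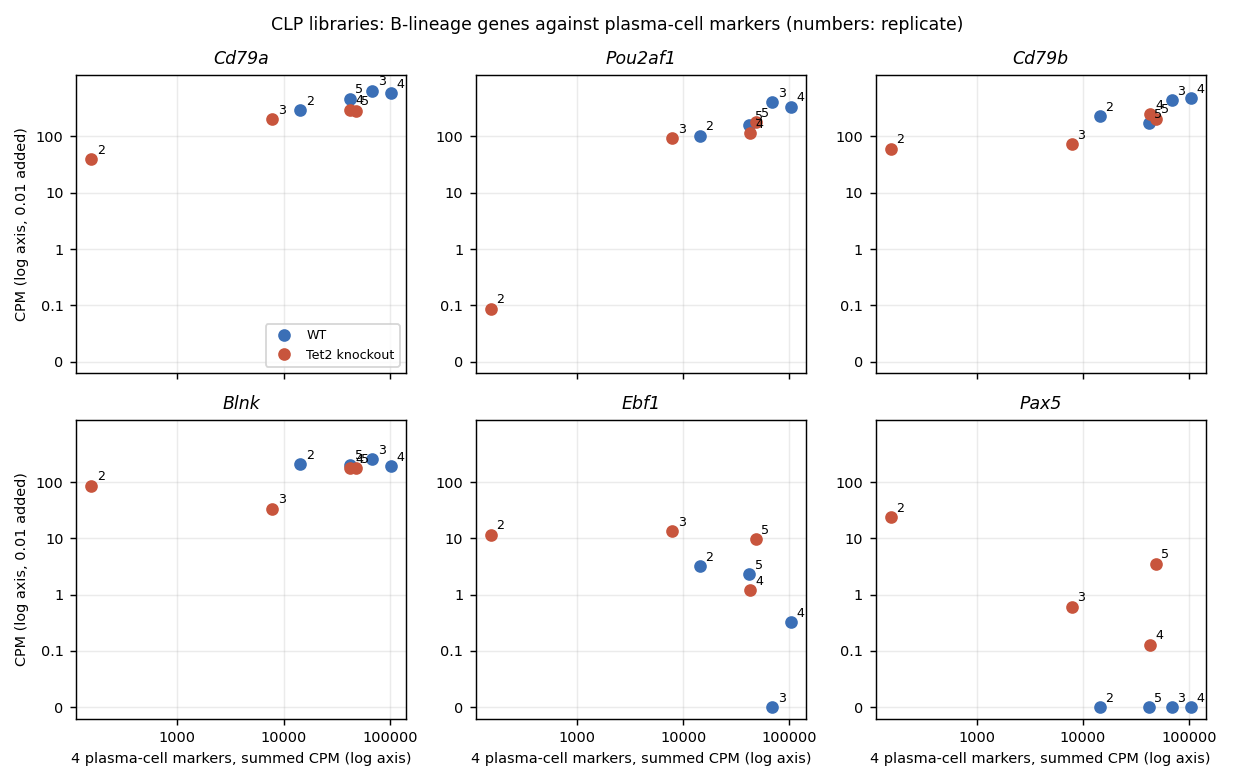
CPM of 6 of the genes (vertical, log axis with 0.01 added) against the summed CPM of 4 plasma-cell markers (horizontal, log axis) in the 8 CLP libraries, WT in blue and Tet2-/- in red, with the replicate number beside each point. Tet2-/- CLP 2 lies far left at 155 CPM, lowest for Cd79a, Cd79b and Pou2af1 and highest for Pax5.

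Whether the effect of Tet2 loss in CLPs differed from its mean effect in the other 5 populations was tested as an interaction in the fit of 46 libraries. Of the 9 genes, 2 were called, against 5.38% of all genes. Vpreb1 had a fitted log2 difference of 10.26 (edgeR, adjusted p = 0.000978) and Pax5 of 8.76 (adjusted p = 0.0181). Both are fits against groups without counts, so their size depends on the prior count of 2, and without Tet2-/- CLP 2 they were 7.81 (adjusted p = 0.00262) and 6.49 (adjusted p = 0.0397). With the replicate number as a block, Pax5 was no longer called (7.68, adjusted p = 0.0811), while Vpreb1 was (10.44, adjusted p = 0.00586). Cd79b had a difference of -1.06 (SE 0.39, adjusted p = 0.105) and Ebf1 of 4.03 (SE 1.98, adjusted p = 0.308). The differences of Cd79a (-1.16), Blnk (0.72), Vpreb3 (0.17) and Pou2af1 (-0.16) were not called, and the fit gave no usable value for Igll1. This fit shares 1 estimate of the spread over all populations. For Cd79b the SD of log2 CPM was 0.72 in WT CLPs and 1.04 in Tet2-/- CLPs, and 0.09 to 0.60 in the 10 other groups. The spread was less even for the 2 called genes. It was 5.56 for Vpreb1 and 3.17 for Pax5 in Tet2-/- CLPs, and 0 for both in WT CLPs, which had no counts. In the 10 other groups it was 0.35 to 3.34 for Vpreb1 and 0 to 2.27 for Pax5.

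Outside CLPs, Cd79b had the highest levels of the 9 genes in stem and myeloid progenitor cells. Its mean in WT was 73.2 ± 4.29 CPM (SD, n = 3) in ST-HSCs, 55.6 ± 9.19 CPM (n = 3) in LT-HSCs, 49.0 ± 9.58 CPM (n = 4) in CMPs, 48.0 ± 6.40 CPM (n = 4) in GMPs and 4.63 ± 1.74 CPM (n = 4) in MEPs. ST-HSCs lay below every WT CLP library and above every WT LT-HSC library, LT-HSCs, CMPs and GMPs overlapped, and MEPs lay below all of them. In Tet2-/- mice the means were 73.1 CPM in ST-HSCs, 57.7 in LT-HSCs, 47.5 in GMPs, 37.9 in CMPs and 4.07 in MEPs, and the ST-HSC and CLP libraries overlapped.

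None of the 9 genes was called between Tet2-/- and WT in any of these 5 populations. The genes that passed the filter numbered 4 in LT-HSCs, 5 in ST-HSCs, 3 in CMPs, 6 in GMPs and 4 in MEPs, where 0.0245%, 0.0185%, 4.57%, 4.37% and 4.36% of all genes were called. DESeq2 called none of them either. The 1 unadjusted p below 0.05 was that of Cd79b in CMPs (log2 fold change -0.38, SE 0.17, adjusted p = 0.258 by edgeR), whose levels were 39.9, 61.1, 42.9 and 52.1 CPM in WT CMPs and 36.2, 34.0, 44.6 and 37.0 CPM in Tet2-/- CMPs. These groups overlapped.

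Vpreb1, the surrogate light chain gene without counts in WT CLPs, was detected at low levels in the other 5 populations, with a median of 0.970 CPM over their 38 libraries. In CMPs it was at 0.605, 3.16, 2.54 and 1.87 CPM in WT and at 0.979, 1.26, 0.207 and 0.441 CPM in Tet2-/- (log2 fold change -1.49, SE 0.74, adjusted p = 0.324 by edgeR). Igll1 was highest outside CLPs in GMPs, with 1.89, 0.996, 0.308 and 1.86 CPM in WT and 1.04, 1.14, 0 and 0.135 CPM in Tet2-/- (log2 fold change -1.11, SE 1.08, adjusted p = 0.686). Blnk reached 0, 3.31 and 9.26 CPM in WT ST-HSCs and 0, 1.19, 0 and 5.86 CPM in Tet2-/- ST-HSCs. In all 3 genes the genotypes overlapped.

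Trace counts of some genes were found more often in 1 replicate number. The 5 libraries of WT replicate 3 outside CLPs each had over 3 counts of Ebf1 (32 to 78), Pax5 (4 to 34), Vpreb3 (32 to 152), Blnk (20 to 285) and Pou2af1 (16 to 59). Of the other 33 libraries, 11 had over 3 counts of Ebf1, 5 of Pax5, 23 of Vpreb3, 23 of Blnk and 15 of Pou2af1. The share did not run this way for Cd79a, with over 3 counts in 2 of the 5 and 17 of the 33, and it was 3 of 5 and 10 of 33 for Igll1, 4 of 5 and 31 of 33 for Vpreb1, and every library for Cd79b. The CLP library with the same replicate number had no Ebf1 and no Pax5 count, but 16451 counts of Pou2af1, 10263 of Blnk and 1259 of Vpreb3. The source of these counts was not tested.

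Regulators upstream of the 9 genes were followed with a list of 12 (among them Spi1, Ikzf1, Tcf3, Il7r and Flt3), and their early B-cell company with a list of 25. In the Tet2-/- against WT comparison of CLPs, 12 and 19 genes of the lists were tested and none was called, beside 0.00766% of all genes. The unadjusted p by edgeR was below 0.05 for 0 of the 12 and 3 of the 19, against 3.65% of all genes. In CLPs against other populations in WT, 14 of 24 tested early B-cell genes were called higher and none lower, beside 15.4% and 11.6% of all genes, with Ighm (12.76), Ikzf3 (12.01), Ly6d (11.67) and Irf4 (11.51) having the largest log2 fold changes. Ighm and Irf4 are also highly expressed in plasma cells. In Tet2-/- mice 18 of 24 were called higher, now including Rag1 (7.47) and Vpreb2 (7.58), and none lower, beside 17.2% and 7.55% of all genes. Of the 12 upstream genes, read against the same shares, Il7r (10.36) and Mef2c (1.10) were called higher in WT CLPs and Bcl11a (-3.21), Myb (-2.71) and Sox4 (-1.36) lower. In Tet2-/- CLPs Il7r (10.27), Flt3 (3.19), Spi1 (2.86), Mef2c (1.30) and Tcf12 (1.04) were called higher and Bcl11a (-1.17) and Myb (-1.10) lower.

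Spi1, which encodes PU.1, a factor of both myeloid and lymphoid fate, was the list gene called in most comparisons of Tet2-/- with WT, namely in the 3 myeloid progenitor populations. It was at 97.3, 89.4, 119 and 106 CPM in WT CMPs and at 16.3, 9.37, 11.9 and 11.6 CPM in Tet2-/- CMPs (log2 fold change -3.08, SE 0.19, adjusted p = 2.89e-05 by edgeR). It fell by 2.61 (SE 0.12, adjusted p = 1.19e-06) in GMPs and fell by 3.45 (SE 0.50, adjusted p = 0.00300) in MEPs, again with groups that did not overlap. In CLPs the WT libraries spanned 13.3 to 118 CPM and the Tet2-/- libraries 5.58 to 106 CPM (log2 fold change 0.25, SE 0.88), and in LT-HSCs from 9.05 to 14.4 and from 5.76 to 14.9 CPM. In ST-HSCs it was at 11.7, 11.1 and 14.8 CPM in WT and at 15.7, 19.9, 19.5 and 23.5 CPM in Tet2-/- libraries, groups that did not overlap, with the mean higher in Tet2-/- and no call (log2 fold change 0.68, SE 0.30, adjusted p = 0.841 by edgeR). In the LT-HSCs of the second set it was at 163, 139 and 120.1 CPM in libraries labelled WT, at 53.7, 32.7 and 25.7 CPM in those labelled Sting-/- and at 0.126, 0.935 and 5.75 CPM in those labelled DKO. None of these 3 groups overlapped, but no pair was called (DKO against WT -5.93, SE 1.36, adjusted p = 0.0735 by edgeR; DKO against Sting-/- -4.01, SE 1.24, adjusted p = 0.296). The share of all genes whose groups did not overlap was not computed for any of these Spi1 comparisons, so the separation has no background beside it. The interaction of CLPs with the other populations was called for Spi1 (1.94, adjusted p = 0.0260 by edgeR) and Bcl11a (2.04, adjusted p = 0.00639). The remaining list calls were Tcf12 in MEPs (-1.63, adjusted p = 0.0137) and Ighm in CMPs (-1.03, adjusted p = 0.00389).

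The genes most like each of the 9 were sought by Pearson's r of log2 CPM over the 46 libraries, which share the contrast of CLPs with the rest. They were Fasl for Ebf1 (0.797), Rag1 for Pax5 (0.877), Gm32220 for Cd79a (0.951), Tnfrsf13b for Cd79b (0.962), Dnah17 for Igll1 (0.733), Nipsnap3b for Vpreb1 (0.633), Ly6d for Vpreb3 (0.781), Il2rb for Blnk (0.821) and Cd40 for Pou2af1 (0.942). Tnfrsf13b encodes a receptor of B and plasma cells, while Il2rb and Fasl are genes of T and NK cells. The gene most like the mean of the 9 was Klrc2 (0.863), an NK-receptor gene. These neighbours depend on the measure: by Spearman's rho or over the 12 group means, 0 to 2 of the 3 nearest genes of each of the 9 and 1 of the 10 nearest to the mean were shared.

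In the second set, LT-HSCs only, 2 of the 9 genes passed the filter and neither was called in any of the 3 pairs, where 0.00915% (Sting-/- against WT), 1.13% (DKO against WT) and 0.686% (DKO against Sting-/-) of 10925 genes were called. Cd79b was at 5.09, 93.0 and 21.2 CPM in libraries labelled WT, at 22.2, 54.7 and 0 CPM in those labelled Sting-/- and at 34.2, 34.3 and 86.8 CPM in those labelled DKO. Its log2 fold changes were -0.63 (SE 1.90) for Sting-/- against WT, 0.38 (SE 1.90) for DKO against WT and 1.01 (SE 1.91) for DKO against Sting-/-, all within the spread of the libraries. The WT and Sting-/- groups of LT-HSCs thus overlapped, and a level of 0 occurred beside 54.7 CPM in 1 group.

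Vpreb1 was at 0.0512, 8.17 and 7.49 CPM in the WT libraries, at 0 in all 3 Sting-/- libraries and at 0, 0 and 6.67 CPM in the DKO libraries. The Sting-/- mean was at least 90.8-fold below WT, a difference that edgeR did not call (adjusted p = 0.919), and 1 of the WT libraries had only 2 counts. DKO against Sting-/- gave an adjusted p of 0.444, and DKO against WT a log2 fold change of -1.22 (SE 3.19). The comparisons share their groups, and the other 7 genes had 0 to 4 counts in every library of the second set.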

How the data were processed

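RNA was measured in libraries of sorted cells, 200 each by the labels. Per the methods, the authors used Trim Galore on the reads, Hisat2 with mm10 for alignment, and deposited 2 tables of gene counts. The counting program and its use of strand are not given in the sources used here, and the labels list both mm10 and mm9. A pair of broken lines in the second table was left out.

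The test was the quasi-likelihood test of edgeR 4.0.16 (R 4.3.3, filterByExpr, TMM scaling, prior count 2), with Benjamini-Hochberg adjustment over all genes and a call at adjusted p below 0.05 and at least 2-fold. Each population was fitted alone, CLPs against other populations in 1 fit of 46 libraries, and the second set in 1 fit of 9. Standard errors (SE) were not estimated by the fit. Each is the absolute log2 fold change divided by the square root of the test's F statistic, and is approximate for genes with few counts. Genes removed by the filter had a two-sided exact permutation test on log2 CPM. Where no library of a group exceeded 3 counts, folds use 3 counts per library as a bound, for counting error only. Alternatives were DESeq2 1.42.0, other scaling, no filter, no minimum fold, a replicate block and left-out libraries. On simulated data the contrast of CLPs with other populations was somewhat liberal.

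The 9 genes and the lists were chosen with earlier results of these data known. All 9 genes were named, and of the lists the called genes or those highest in CLPs. Per the study, the libraries of a group came from separate mice, and no 2 libraries held identical values. Whether 1 number marks 1 mouse across populations is not stated. Correlations of same-numbered deviations were -0.022 to 0.035 between genotypes and -0.016 to 0.106 across populations. Gene lengths for the per-length scale were those deposited with the counts of the second set. Gene positions came from the GENCODE annotation of mm10.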

Additional observations from a re-analysis of the deposited data

Results flagged for a closer look

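Within groups of 4 libraries, 1 library stood apart from the other 3 for 15 of the 80 combinations of gene and group checked. Chance gives about 1 in 20 for continuous values, a rate that does not hold for genes with many counts of 0. The measure is the gap to the nearest library as a share of the whole range on the log2 CPM scale. In 12 of them it was 1, since the 3 other libraries all had 0 counts. These were Cd79a in Tet2-/- GMP 5 (5 counts) and WT MEP 3 (28), Ebf1 in WT MEP 3 (41) and Tet2-/- ST-HSC 5 (9), Igll1 in WT CMP 3 (8), Pax5 in WT CMP 3 (4), WT GMP 3 (30), Tet2-/- MEP 5 (4) and Tet2-/- ST-HSC 3 (8), and Pou2af1 in WT CMP 3 (32), Tet2-/- LT-HSC 4 (4) and Tet2-/- ST-HSC 2 (8). WT replicate 3 was the library that stood apart in 6 of the 12.

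In CLPs, Ebf1 in Tet2-/- library 4 was low (0.862 of the range, 60 counts against 650 to 1036), and Pou2af1 in Tet2-/- library 2 was low (0.913, 6 counts against 5745 to 12040). In ST-HSCs, Vpreb1 in Tet2-/- library 2 was low (0.946, 0 counts against 66 to 99).

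The interaction test set the effect of Tet2 loss in CLPs against its mean effect in the other 5 populations. In the fit of all 46 libraries, edgeR called Pax5 (fitted log2 difference 8.76) and Vpreb1 (10.26), with adjusted p-values of 0.0181 and 0.000978. Both genes were left out by the filter in the fit of CLPs alone. With a replicate block Pax5 was no longer called (adjusted p = 0.0811). Both genes had no counts in WT CLPs, and their levels in Tet2-/- CLPs were highest in library 2.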

How the results depend on the processing

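The values recomputed under alternatives were fold changes and counts of called genes together. Of them, 974 were unchanged, 52 moved, 13 reversed (1 of them going to 0), 6 came to pass the threshold and 2 no longer passed it. Unchanged means the same direction and side of the threshold for a fold change, and for a count equal or within a set ratio. Among fold changes of the 9 genes, outside the fits that left out 1 library, 282 were unchanged and 3 reversed. A further 3 came to pass the threshold and 1 no longer passed it. The count of the 9 genes called in the interaction was 4 with DESeq2 (Pax5, Cd79b, Igll1 and Vpreb1) and 1 with a replicate block (Vpreb1), against 2, where 14.6% and 2.96% of all genes were called. With the replicate block, Pax5 had a difference of 7.68 (edgeR, adjusted p = 0.0811). In CLPs against other populations, the block added Ebf1 to the genes called in WT (4.21, adjusted p = 0.00434) and changed no call in Tet2-/-. In Tet2-/- against WT CLPs, 4 genes (Pax5, Cd79b, Igll1 and Vpreb1) were called when all 46 libraries shared 1 fit, against 0, and so were 6.61% of all genes. Signs turned for Pou2af1 in the interaction (0.24 with DESeq2, 0.44 without Tet2-/- CLPs 2 and 3 together, -0.65 to 0.25 leaving out 1 CLP library), for Vpreb3 there (-0.19 with the replicate block, -0.29 to 0.64 leaving out 1), and, leaving out 1 library of the second set, for Cd79b in Sting-/- against WT (-1.81 to 0.96) and DKO against WT (-0.21 to 1.97). For Vpreb1 in DKO against Sting-/- the range was 0 to 6.31, with 0 when the 1 library with counts was left out. For the turned signs the cause was not tested. Leaving out 1 CLP library gave 8 to 9 called genes in Tet2-/- CLPs against the others, 6 in WT and 2 to 3 in the interaction. Over all genes, these fits called 5009 to 5768, 5525 to 6352 and 1061 to 1399. In the interaction, Cd79b passed without Tet2-/- CLP 4 (-1.44), WT CLP 2 (-1.26) or WT CLP 5 (-1.33). Without Tet2-/- CLPs 2 and 3 together, an alternative chosen after seeing the data, the interaction still held 2 genes (Pax5 6.85 and Vpreb1 8.38). Leaving out immunoglobulin and J chain genes, also chosen after seeing the data, changed no call of the 9 genes. Leaving out each of the 38 other libraries in the 46-library fits was not run.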
